A study of Mus musculus with 15 samples.

Results

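Mouse stem cells lacking Atg7 (KO), taken 4 days into the change to epiblast-like cells, were set against control cells at day 2, to ask whether the knockout cells at the later day stood where control cells had stood 2 days before. The comparison used 6 of the 15 RNA-seq libraries of the series, 3 titled as day 4 Atg7 KO (KO d4) and 3 titled as day 2 control (control d2), and covered every gene of the deposited raw count tables. The labels give the mouse embryonic stem cell (ESC) line E14TG2 for all libraries. ESCs had been grown on growth-arrested embryonic fibroblast feeders with leukaemia inhibitory factor and the inhibitors PD0325901 and CHIR99021. They were then moved to fibronectin in N2B27 medium with activin A, basic FGF and knockout serum replacement. The other libraries were 3 each of KO cells at day 2, of control cells at day 4 (control d4) and of ESCs at day 0, which the labels also call control. The labels do not give the number of clones behind the knockout line. E14TG2 cells are known to lack working Hprt, a purine salvage gene on the X chromosome. The libraries labelled ESC d0 had 195 ± 11.2 CPM of it, against 2.38 ± 0.485 CPM in KO d4 and 2.34 ± 0.152 CPM in control d2 (SD, n = 3 each), which goes against the label of the line for ESC d0. ESC d0 enters here the filter, scaling and spread of the fits over all libraries, also that with a collagen score described below. It also enters the time course sets and levels given beside others. KO d4 and control d2 differ in both genotype and day, so the parts of genotype and of time in any difference cannot be told apart.

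Naive ESCs correspond to the pre-implantation epiblast and are held by factors such as Nanog, Klf4 and Tfcp2l1. On release with FGF and activin, these factors decline, and a formative programme of new DNA methyltransferases and FGF and Nodal feedback genes takes over. ATG7 is the E1-like enzyme that activates ATG8-family proteins and ATG12, and without it ATG8-family proteins are not joined to membrane lipid in the usual way. Autophagy supplies amino acids and removes organelles and selected proteins, so a change in protein level need not appear in the RNA.

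KO d4 differed from control d2 in 67.6% of the genes tested (33.3% higher and 34.3% lower), and gene groups did so in different ways. Of the formative genes 12 of 23 were higher in KO d4, such as Dnmt3a, and so were 12 of 18 Nodal and activin genes, such as Lefty2. Cholesterol synthesis genes such as Insig1 were lower. The 25 naive genes were split, with Nanog, Esrrb and Klf5 among 9 higher, Klf4 and Dppa5a among 10 lower, and Tfcp2l1 and Tbx3 among 6 that did not pass the test. Targets of the integrated stress response such as Chac1 and Atf5 were higher in KO d4 than in control d2 or control d4, although the summed level of the list in ESC d0 overlapped or exceeded that of KO d4. Glycolytic genes such as Slc16a3 were lower in KO d4 than in control d2 or control d4.

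Of 15696 genes with enough counts to test, 10613 (67.6%) differed between KO d4 and control d2 at an adjusted p under 0.05 in the quasi-likelihood test of edgeR, adjusted by Benjamini-Hochberg over all genes. They were split into 5230 higher (33.3%) and 5383 lower (34.3%) in KO d4. In 11954 genes (76.2%) the 3 KO d4 libraries all lay on the same side of the 3 control d2 libraries. At least a 2-fold change was fitted for 1979 of the higher and 1909 of the lower genes. For 4941 genes (31.5%) the 95% confidence interval of the difference lay wholly within 1.5-fold of no change, and for 4225 (26.9%) it lay wholly outside. Nothing in the labels says that the 3 libraries of a group were grown apart, so these p-values measure the spread between libraries, which may be technical.

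For scale, 2 further comparisons that share libraries with this one were fitted in the same model. Control d4 against control d2 gave 10741 calls (68.4%), with 33.9% of genes higher and 34.6% lower. KO d4 against control d4 gave 5903 calls (37.6%), with 19.5% higher and 18.1% lower, and the interval lay wholly within 1.5-fold for 7775 genes (49.5%). The root mean square distance between libraries on the log2(CPM + 1) scale, where CPM is the usual per-library scaling of a count to a fixed total, had a median of 0.745 over the 9 pairs of KO d4 with control d2 (0.717 to 0.791). It was 0.456 over the pairs of KO d4 with control d4 (0.445 to 0.469) and 0.680 over the pairs of KO d4 with KO d2. Within groups the medians were 0.207 in KO d4 and 0.192 in control d2. Within ESC d0, which enters the spread of the fit, the median was 0.444 (0.256 to 0.529). On this measure each KO d4 library stood nearer to the control libraries of its own day than to those of day 2.

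Total counts ran from 15300133 to 17282802 in KO d4 and from 17425578 to 22290971 in control d2, and from 14059237 to 23371546 over all 15 libraries. Fibroblast and feeder markers summed to 2214 to 2313 CPM in KO d4 and 2394 to 2598 CPM in control d2, and no marker of the 24 was at 0 in either group. The mean log2(CPM + 1) of 3 fibroblast collagen genes was 4.35 to 4.79 in KO d4 and 5.45 to 5.72 in control d2. The 12 endothelial and blood markers summed to 40.4 to 44.6 CPM in KO d4 and 38.6 to 42.3 CPM in control d2. Median differences by chromosome lay between -0.14 and 0.07 except for chromosomes 6 (0.29 over 779 genes), 18 (0.38 over 408), X (0.12 over 617) and Y (1.28 over 8). For control d4 against control d2 the medians of chromosomes 6, 18 and Y were 0.39, 0.35 and 1.18. Genes of these chromosomes are named with their chromosome below, and the part of these shifts, and of the feeder markers, in any result was not tested. Members of the gene lists used below are counted against the 33.3% of all genes higher and 34.3% lower, and a share near these is no result about the list. For control d4 against control d2 the shares to use are 33.9% and 34.6%. For KO d4 against control d4 they are 19.5% and 18.1%.

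**Figure D1:**
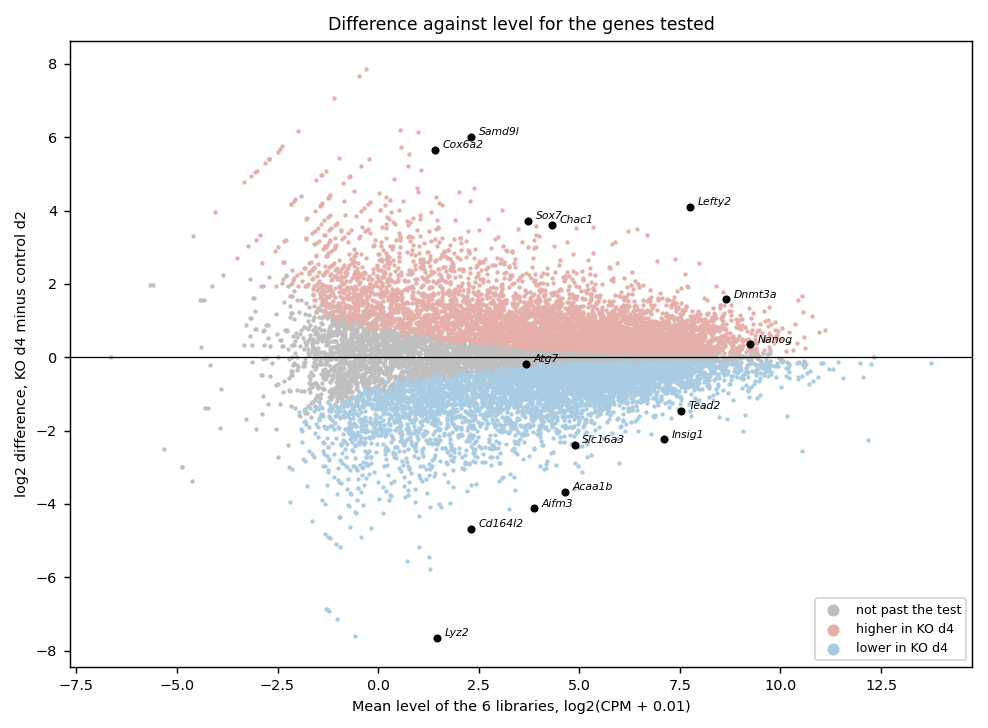
Each point is 1 of the genes tested, with the mean level of KO d4 and control d2 on a log2 CPM axis and the fitted log2 difference of KO d4 minus control d2 on the other. Points past an adjusted p of 0.05 are coloured by direction, and 15 genes named in the text are labelled. Increases and decreases were spread over the whole range of levels, and Atg7 lay close to 0.

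Atg7 (ENSMUSG00000030314, chr6:114643097-114860614 in GRCm38, plus strand) did not separate KO d4 from control d2. It had 12.6, 12.7 and 10.4 CPM in KO d4, against 14.6, 12.1 and 14.0 CPM in control d2. The ranges overlapped, and the log2 difference was -0.18 ± 0.11 (SE; adjusted p = 0.136 in edgeR, 95% interval -0.41 to 0.04). Control d4 stood higher at 19.5 ± 0.379 CPM (SD, n = 3), and KO d4 was lower than control d4 by a log2 difference of -0.71 ± 0.11 (adjusted p = 8.39e-05 in edgeR). KO d2 had 6.84, 7.53 and 7.11 CPM. Reads of the locus remained in the libraries labelled KO, and counts over a whole gene cannot show whether they held the deleted part.

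Genes that moved over the control time course showed KO d4 between control d2 and control d4. From the contrast of control d4 with ESC d0, genes at an adjusted p under 0.05 in edgeR were selected. They were 2990 genes at least 2-fold higher in control d4 and 1869 at least 2-fold lower. Of the 2990, 1366 (45.7%) were higher and 560 (18.7%) lower in KO d4 than in control d2, with a median log2 difference of 0.45. Of the 1869, 292 (15.6%) were higher and 966 (51.7%) lower, with a median of -0.46. Over the 2990 genes the mean log2(CPM + 1) was 2.70 to 2.71 in KO d4, 2.37 to 2.44 in control d2 and 3.03 to 3.04 in control d4. Over the 1869 it was 3.41 to 3.42 in KO d4, 3.76 to 3.77 in control d2 and 3.18 to 3.22 in control d4. The 3 KO d4 libraries had values between those of the control groups in both sets. Since the sets were chosen for high or low values in control d4, its place at the far end, and with it part of the gap between KO d4 and control d4, was fixed by the choice. KO d4 and control d2 took no part in the contrast behind the choice, but they entered the filter, scaling and spread of the fit. The choice rests on the ESC d0 libraries with the Hprt level above. Whether the sets hold other differences of that kind beside time was not tested.

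**Figure D2:**
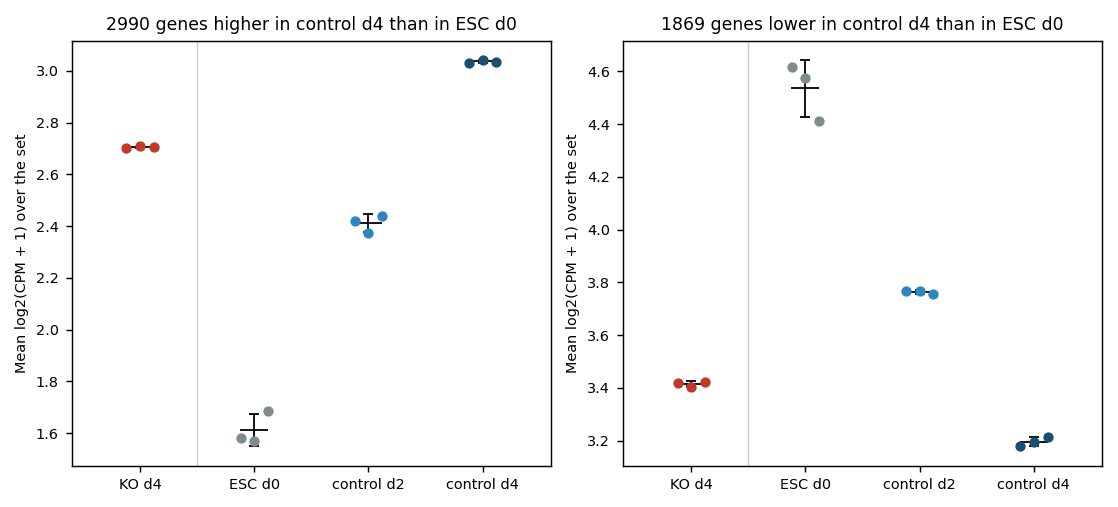
The mean log2(CPM + 1) over 2990 genes higher (left) and 1869 genes lower (right) in control d4 than in ESC d0 is plotted for each library, with the group mean and SD (n = 3). KO d4 lay between control d2 and control d4 in both sets, at 2.70 to 2.71 and at 3.41 to 3.42.

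The naive pluripotency genes held members above, near and below the control d2 level. Of 25 tested, 9 were higher in KO d4, 10 were lower and 6 did not pass the test, shares near those of all genes, with a median log2 difference of -0.14. Means below are given ± SD over 3 libraries, and log2 differences ± SE. For 9 of the 25 the 95% interval lay wholly within 1.5-fold of control d2, a share near the 31.5% of all genes. In the comparisons that share these libraries, 7 of the 25 were higher and 15 lower in control d4 than in control d2. Against control d4, 16 were higher and 2 lower in KO d4, beside 19.5% and 18.1% of all genes.

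Nanog (chr6:122707489-122714633, plus strand), the homeodomain factor that sustains self-renewal, had 677, 589.9 and 779.9 CPM in KO d4, against 551, 493 and 558 CPM in control d2. All KO d4 libraries were above all control d2 libraries, with 682 ± 95.1 CPM on average in KO d4 against 534 ± 35.8 CPM in control d2. The log2 difference was 0.35 ± 0.10 (SE; adjusted p = 0.00455 in edgeR). The median of chromosome 6, on which it lies, was 0.29. Control d4 had 417, 412 and 409 CPM and KO d2 had 1121, 1181 and 1198 CPM, so KO d4 was above both control groups and below KO d2.

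Esrrb, an orphan nuclear receptor of the naive network, had 334, 323 and 349 CPM in KO d4, against 227, 211 and 215 CPM in control d2. Its log2 difference was 0.62 ± 0.07 (SE; adjusted p = 7.88e-07 in edgeR), and its mean of 336 CPM in KO d4 also exceeded the 251 CPM of control d4. Klf5, a Krüppel-like factor of the naive state, averaged 251 ± 15.2 CPM in KO d4 and 90.4 ± 2.93 CPM in control d2, a log2 difference of 1.47 ± 0.13. Zfp42, the naive marker Rex1, averaged 374 ± 11.4 CPM in KO d4 and 239 ± 1.89 CPM in control d2, a log2 difference of 0.65 ± 0.05. Prdm14, which represses FGF receptor signalling and DNA methyltransferases, averaged 33.1 ± 3.41 CPM in KO d4 and 21.6 ± 1.29 CPM in control d2 (log2 difference 0.61 ± 0.18, adjusted p = 0.00773 in edgeR). Nr5a2, a nuclear receptor that acts on Pou5f1, and Tet2, a 5-methylcytosine dioxygenase, were higher, with log2 differences of 0.45 and 0.84. In each of these 7 genes, Nanog included, all KO d4 libraries were above all libraries of control d2 and of control d4.

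Fbxo15, an Oct4 and Sox2 target on chromosome 18, and Dppa2, a chromatin factor of pluripotent cells, were higher, with log2 differences of 1.07 and 1.28. Their means of 498 and 269.5 CPM in KO d4 were beside 499.5 and 351 CPM in control d4, so neither gene stood above control d4.

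A set of naive factors did not pass the test against control d2, while control d4 was lower. Tfcp2l1 (chr1:118627945-118685168, plus strand), a transcription factor downstream of LIF, had 302, 264 and 321 CPM in KO d4, against 322, 350.0 and 308 CPM in control d2. The ranges overlapped, and the log2 difference was -0.14 ± 0.07 (SE; adjusted p = 0.0976 in edgeR, 95% interval -0.30 to 0.01). It passed as lower with 1 library left out, at edgeR adjusted p = 0.034 without KO d4 replicate 3. Control d4 had 170.1, 173 and 159 CPM, below every library of KO d4 and control d2. Tbx3, a T-box factor of the same network, averaged 336 ± 19.8 CPM in KO d4 and 318 ± 3.71 CPM in control d2 (log2 difference 0.08 ± 0.06, interval -0.05 to 0.20), against 173 CPM in control d4. Zfp57, which protects imprints, averaged 511 ± 27.6 CPM in KO d4 and 511 ± 29.5 CPM in control d2 (log2 difference 0.00 ± 0.09, interval -0.19 to 0.19, and with the collagen score as covariate the log2 difference was 0.17 with adjusted p = 0.0083 in edgeR), against 358 CPM in control d4. Klf2, another Krüppel-like factor, averaged 47.9 ± 4.82 CPM in KO d4 and 52.7 ± 8.49 CPM in control d2 and 32.7 CPM in control d4, with an interval of -0.40 to 0.11. Tcl1, an AKT coactivator, and Nr0b1, an orphan receptor on the X chromosome, had log2 differences of -0.16 ± 0.07 and 0.28 ± 0.17 and did not pass the test. Tcl1 passed at edgeR adjusted p = 0.0443 without control d2 replicate 2. A p that misses the threshold does not show that levels were the same, and the intervals give the differences these libraries allow.

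Other naive genes were already below control d2 in KO d4. Klf4 had 94.8, 79.0 and 104 CPM in KO d4, against 123, 118 and 119 CPM in control d2, with no overlap and a log2 difference of -0.38 ± 0.10 (SE; adjusted p = 0.00366 in edgeR). Control d4 was lower still at 43.0 CPM. Fgf4, the ligand that starts the exit from naive pluripotency, averaged 109 ± 4.64 CPM in KO d4 and 179 ± 7.67 CPM in control d2 (log2 difference -0.72 ± 0.08), against 60.0 CPM in control d4. Dppa5a, an RNA-binding protein of ESCs, averaged 564 ± 4.17 CPM in KO d4 and 1722 ± 88.1 CPM in control d2, and control d4 averaged 556 CPM. Pecam1, a surface adhesion molecule of naive cells, Socs3, the LIF feedback inhibitor, and Lifr, the LIF receptor, were lower, with log2 differences of -0.63, -0.72 and -0.39.

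Dppa3 (chr6:122626410-122630272, plus strand), which restrains DNA methylation by binding UHRF1, went against the course of the controls. It had 5.22, 4.50 and 3.39 CPM in KO d4, against 25.3, 23.8 and 26.1 CPM in control d2. The KO d4 libraries were all far below, with a log2 difference of -2.51 ± 0.17 (SE; adjusted p = 2.45e-09 in edgeR). Control d4 had 43.1, 32.6 and 42.0 CPM, above control d2, and KO d2 had 16.4, 17.5 and 18.7 CPM. The chromosome 6 median was of the opposite sign.

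**Figure D3:**
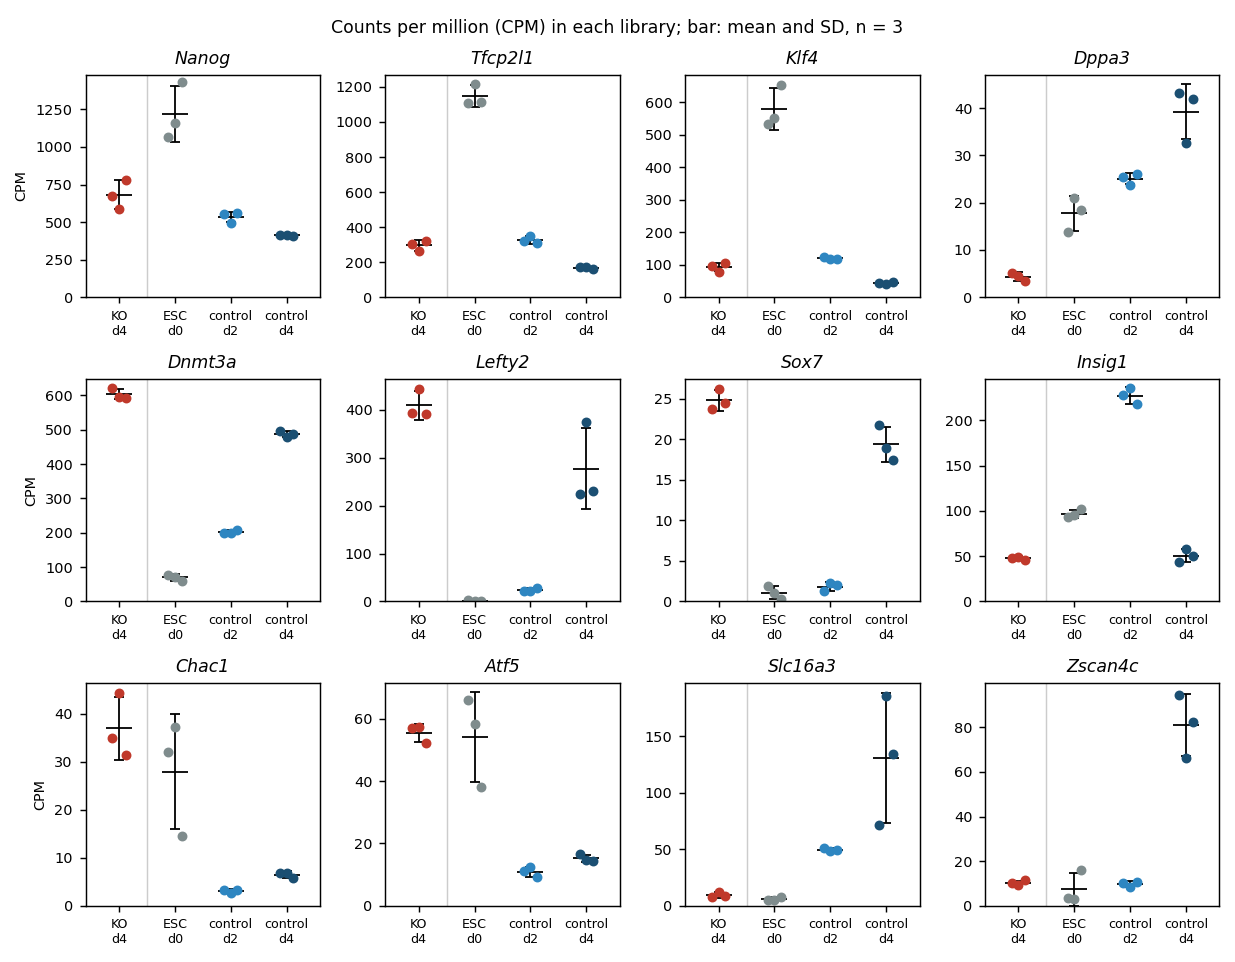
CPM of 12 genes in each library of KO d4 (left of the line) and of ESC d0, control d2 and control d4 (right), with group mean and SD (n = 3). Tfcp2l1 and Zscan4c of KO d4 lay with control d2, and Dnmt3a, Lefty2, Sox7 and Insig1 lay nearer to control d4. Chac1, Atf5, Dppa3 and Slc16a3 lay outside the range of control d2 and control d4, as did Nanog and Lefty2, which were above it. The KO d4 means of Dnmt3a and Sox7 were also above those of both control groups.

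Of 17 general pluripotency genes, 11 were higher, 2 were lower and 4 did not pass, with a median log2 difference of 0.69. Pou5f1, which encodes OCT4, was 1 of the 2 lower, with 562, 618 and 561 CPM in KO d4, against 845, 909.6 and 814 CPM in control d2 (log2 difference -0.56 ± 0.05, adjusted p = 1.14e-07 in edgeR). Control d4 had 433 CPM. The other was Epcam, an epithelial adhesion protein, which averaged 115 ± 6.65 CPM in KO d4 and 209.7 ± 6.76 CPM in control d2, against 181 CPM in control d4.

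Sox2, the partner of OCT4, had 325, 299.8 and 338 CPM in KO d4, against 313, 310.4 and 326 CPM in control d2, which overlapped (log2 difference 0.02 ± 0.06, interval -0.10 to 0.14), and control d4 averaged 256 CPM. Utf1, a chromatin protein of pluripotent cells, also overlapped, with means of 243 ± 14.6 CPM in KO d4 and 230.2 ± 11.0 CPM in control d2. Lin28a, a let-7 inhibitor, and Foxd3, a forkhead repressor, had log2 differences of 0.42 ± 0.28 and -0.24 ± 0.31 and did not pass. For Foxd3 with the collagen score as covariate the log2 difference was 0.41 with adjusted p = 0.0214 in edgeR.

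Trim28, the corepressor of KRAB zinc finger proteins that silences retroelements, had 1444, 1484 and 1445 CPM in KO d4, against 894, 906 and 908 CPM in control d2. The groups did not overlap, the log2 difference was 0.69 ± 0.05 (SE; adjusted p = 1.25e-08 in edgeR), and control d4 averaged 855 CPM. Sall4, Zscan10 and Mycn, transcription factors of pluripotent cells, were higher, with log2 differences of 0.60, 0.90 and 0.97, also above control d4. Gdf3, a TGF-beta ligand on chromosome 6, averaged 50.2 ± 1.41 CPM in KO d4 and 27.0 ± 2.53 CPM in control d2, against 23.6 CPM in control d4. Rif1, Zfp281 and L1td1, which act in replication timing, in the exit from the naive state and in RNA binding, were higher, with log2 differences of 0.73, 0.62 and 1.89, as they were in control d4. Myc averaged 13.2 ± 1.27 CPM in KO d4 and 3.66 ± 1.33 CPM in control d2, against 21.7 CPM in control d4.

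Of 23 formative and primed epiblast genes, 12 were higher, 4 were lower and 7 did not pass, with a median log2 difference of 0.33. For control d4 against control d2 the counts were 13 higher and 5 lower, with a median of 0.72. Dnmt3a (chr12:3806007-3914443, plus strand), a de novo DNA methyltransferase, had 620.4, 596 and 593 CPM in KO d4, against 199.9, 199 and 208 CPM in control d2. The log2 difference was 1.58 ± 0.08 (SE; adjusted p = 8.82e-11 in edgeR), and control d4 averaged 487 CPM. Dnmt3b, the other de novo enzyme, averaged 223 ± 9.52 CPM in KO d4 and 120.1 ± 1.28 CPM in control d2 and 222 CPM in control d4.

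Lin28b, a let-7 inhibitor, averaged 32.5 ± 1.46 CPM in KO d4 and 7.98 ± 0.901 CPM in control d2 (log2 difference 2.02 ± 0.13). Otx2, a homeodomain factor that drives the exit from naive pluripotency, averaged 19.8 ± 0.825 CPM in KO d4 and 8.59 ± 0.227 CPM in control d2 (log2 difference 1.20 ± 0.16), against 29.0 CPM in control d4. Etv5, an ETS factor of the primed network, was higher, with a log2 difference of 1.00, and so were Sox4, a SOX factor, and Lef1, a Wnt effector, at 0.49 and 1.21. Cdh2, N-cadherin, on chromosome 18, was higher, with a log2 difference of 1.53. Fgf5, the classic epiblast-like cell marker, was low in both groups, with 2.00, 1.73 and 1.24 CPM in KO d4, against 0.0558, 0.0472 and 0 CPM in control d2. Its 82 counts in KO d4 against 2 in control d2 gave a ratio of 50.8 per total count (95% exact counting interval 13.6 to 427.0).

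Other formative markers did not separate KO d4 from control d2. Pou3f1, the POU factor OCT6, had 5.53, 5.65 and 5.28 CPM in KO d4, against 6.70, 5.43 and 6.91 CPM in control d2, which overlapped (log2 difference -0.21 ± 0.23, interval -0.70 to 0.28), and control d4 averaged 11.1 CPM. Dnmt3l, the catalytically inactive cofactor of the DNMT3 enzymes, averaged 299 ± 21.5 CPM in KO d4 and 306 ± 9.23 CPM in control d2 (interval -0.40 to 0.33, and with the collagen score as covariate the log2 difference was 0.31 with adjusted p = 0.0205 in edgeR), against 505 CPM in control d4. Zic2, a zinc finger factor, averaged 39.1 ± 3.09 CPM in KO d4 and 40.0 ± 4.38 CPM in control d2, against 24.7 CPM in control d4. Sox3, Sall2 and Etv4 also did not pass, with log2 differences of -0.54 ± 0.27, -0.01 ± 0.16 and 0.20 ± 0.18. Sox3, on the X chromosome, passed at edgeR adjusted p = 0.0345 without control d2 replicate 2. Tead2, Sox11, Pim2 (on the X chromosome) and Fgf15 were the 4 lower members, with log2 differences of -1.45, -0.86, -0.42 and -1.01. Fgf15 lost the call, with edgeR adjusted p = 0.119 without KO d4 replicate 2, 0.0707 without control d2 replicate 1 and 0.0961 without control d2 replicate 2. Tead2, a TEAD factor, averaged 99.2 ± 5.63 CPM in KO d4 and 272 ± 6.96 CPM in control d2, and control d4 averaged 93.3 CPM.

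Of 19 FGF and ERK feedback genes, 13 were higher, 2 were lower and 4 did not pass, with a median of 0.94. Against control d4, 1 was higher and 7 lower in KO d4, beside 19.5% and 18.1% of all genes. Spry2, an inhibitor of receptor tyrosine kinase signalling, averaged 106 ± 12.9 CPM in KO d4 and 17.6 ± 0.962 CPM in control d2 (log2 difference 2.58 ± 0.17), and control d4 averaged 109.7 CPM. Spred2, of the same inhibitor family, had a log2 difference of 0.94 ± 0.06. Dusp4, a MAPK phosphatase, averaged 49.4 ± 1.43 CPM in KO d4 and 25.3 ± 2.48 CPM in control d2, against 89.9 CPM in control d4. The lower members were Fgfr1, an FGF receptor, and the immediate-early gene Fos, with log2 differences of -0.55 and -0.81. Fos lost the call, with edgeR adjusted p = 0.0529 without KO d4 replicate 1, 0.052 without KO d4 replicate 3 and 0.0702 without control d2 replicate 2. Etv1, Ier3, Etv4 and Spry1 did not pass, and of these Ier3, an immediate-early gene, averaged 4.01 ± 0.0810 CPM in KO d4 and 7.08 ± 0.573 CPM in control d2, against 30.6 CPM in control d4.

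Among 18 Nodal and activin genes, 12 were higher, 1 was lower and 5 did not pass, with a median of 0.62. Lefty2 (chr1:180893108-180899103, plus strand), the secreted Nodal inhibitor that is itself a target of Nodal, had 394, 443 and 390.5 CPM in KO d4, against 21.8, 20.8 and 28.4 CPM in control d2. The groups stood far apart, with a log2 difference of 4.11 ± 0.22 (SE; adjusted p = 1.92e-10 in edgeR), and control d4 had 225, 375 and 231 CPM. Lefty1, its paralogue, averaged 64.3 ± 1.88 CPM in KO d4 and 10.2 ± 2.79 CPM in control d2 (log2 difference 2.66 ± 0.25). The ligand Nodal averaged 170.0 ± 0.592 CPM in KO d4 and 93.3 ± 9.02 CPM in control d2 and 144 CPM in control d4, and its co-receptor Tdgf1 averaged 509 ± 12.8 CPM in KO d4 and 239.9 ± 9.49 CPM in control d2 and 606 CPM in control d4. Fst, an activin-binding antagonist, was the lower member, at 2.93 ± 0.466 CPM in KO d4 and 6.66 ± 1.04 CPM in control d2. Acvr1b, Acvr2b, Smad2 (chromosome 18), Foxh1 and Smad3, receptors and signal transducers, did not pass, with log2 differences of 0.14, 0.09, 0.11, 0.10 and -0.02. Acvr1b passed at edgeR adjusted p = 0.0497 without KO d4 replicate 1.

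Of 15 DNA methylation genes, 9 were higher, 2 were lower and 4 did not pass, which were Uhrf1, Dnmt1, Dnmt3l and Zfp57. In a fit of the 6 libraries alone 4 were lower. Tet3, a 5-methylcytosine dioxygenase on chromosome 6, averaged 33.9 ± 2.68 CPM in KO d4 and 11.5 ± 2.00 CPM in control d2. Beside Dppa3, the lower member was Gadd45b, a stress-induced gene linked to demethylation, at 15.3 ± 1.68 CPM in KO d4 and 112 ± 13.1 CPM in control d2 (log2 difference -2.88 ± 0.15), and control d4 averaged 40.2 CPM.

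The integrated stress response stood above control d2 and above control d4. This response follows phosphorylation of eIF2alpha and is carried by ATF4 and its targets in amino acid supply. Of 23 members, 19 were higher, 1 was lower and 3 did not pass, with a median log2 difference of 1.35, beside 33.3% of all genes higher and 34.3% lower. The list had 12 higher and 6 lower in control d4 against control d2, with a median of 0.47. In KO d4 against control d4 it had 21 higher and 0 lower, with a median of 1.17, beside 19.5% and 18.1% of all genes. The count of 0 was also 0 at an unadjusted p under 0.05 in edgeR and 0 in DESeq2.

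Atf4 had 258, 281 and 224 CPM in KO d4, against 93.7, 113 and 91.3 CPM in control d2, and it averaged 140.2 CPM in control d4. Atf5, a related bZIP factor, had 57.1, 57.3 and 52.2 CPM in KO d4, against 11.2, 12.4 and 9.20 CPM in control d2 (log2 difference 2.35 ± 0.16 (SE), adjusted p = 2.72e-09 in edgeR). Chac1 (chr2:119351229-119354381, plus strand), which degrades glutathione, had 35.0, 44.4 and 31.5 CPM in KO d4, against 3.29, 2.55 and 3.28 CPM in control d2 (log2 difference 3.60 ± 0.28), and control d4 had 6.86, 6.90 and 5.71 CPM. In each of these genes every KO d4 library was above every control library of either day. The 23 members summed to 3525 to 4017 CPM in KO d4, against 1926 to 2094 CPM in control d2, 1987 to 2212 CPM in control d4 and 3985 to 5393 CPM in ESC d0. The ESC d0 sums thus overlapped or exceeded those of KO d4. ESC d0 averaged 522 CPM of Atf4 and 54.2 CPM of Atf5. It had 32.0, 37.4 and 14.4 CPM of Chac1, lower in replicate 3 than in the others.

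Slc7a11, the cystine transporter, averaged 9.30 ± 0.855 CPM in KO d4 and 0.485 ± 0.0463 CPM in control d2 (log2 difference 4.25 ± 0.45). Asns, asparagine synthetase on chromosome 6, averaged 849 ± 27.3 CPM in KO d4 and 333 ± 14.5 CPM in control d2 (log2 difference 1.35 ± 0.09), against 627 CPM in control d4. Sesn2, a leucine sensor upstream of mTORC1, averaged 159.9 ± 12.3 CPM in KO d4 and 59.7 ± 1.88 CPM in control d2. Trib3, a pseudokinase that feeds back on ATF4, averaged 64.3 ± 8.65 CPM in KO d4 and 20.2 ± 1.43 CPM in control d2 and 17.4 CPM in control d4. Nupr1, a stress-induced chromatin protein, averaged 27.8 ± 2.69 CPM in KO d4 and 7.80 ± 1.17 CPM in control d2 and 5.35 CPM in control d4. Mthfd2, of mitochondrial folate metabolism on chromosome 6, averaged 289 ± 15.6 CPM in KO d4 and 111 ± 9.69 CPM in control d2 and 109.7 CPM in control d4. Phgdh, the entry enzyme of serine synthesis, was the lower member at 197 ± 18.1 CPM in KO d4 and 255 ± 7.68 CPM in control d2, although control d4 was lower still at 100.1 CPM. Cebpb, Ddit3 and Slc3a2 did not pass, with log2 differences of 0.95 ± 0.43, 0.36 ± 0.20 and -0.02 ± 0.06. Cebpb passed at edgeR adjusted p = 0.048 without KO d4 replicate 2 and 0.0486 without control d2 replicate 3, and Ddit3 at edgeR adjusted p = 0.0166 without control d2 replicate 2. Atf4, Chac1, Trib3, Nupr1 and Mthfd2 were chosen for description after their values were seen.

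The element known to bind ATF4 with C/EBP partners was looked for as TGATGNAAN on both strands in the window from 250 bases before to 50 after each gene's start in RefSeq (GRCm38.p6). It was present in 7 of 22 members with a window (31.8%), and in 346 of 12143 tested genes with one (2.85%). A match is a description of letters and not a measured site. Stretches of 80 bases, written on the strand of the gene with the element in capitals, are shown for 5 members that rose and whose levels set KO d4 apart from both controls. In the windows of Trib3, Chac1 and Nupr1 the capitals read the element on the opposite strand, and the window of Slc7a11 holds it on both.
Chac1 (chr2:119351012-119351091, plus strand): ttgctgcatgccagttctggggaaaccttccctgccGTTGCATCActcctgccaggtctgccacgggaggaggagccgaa
Slc7a11 (chr3:50443636-50443715, minus strand): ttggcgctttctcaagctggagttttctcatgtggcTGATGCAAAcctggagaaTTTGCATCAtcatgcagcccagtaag
Asns (chr6:7693189-7693268, minus strand): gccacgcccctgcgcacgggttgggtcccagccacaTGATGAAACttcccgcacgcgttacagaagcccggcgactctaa
Trib3 (chr2:152344011-152344090, minus strand): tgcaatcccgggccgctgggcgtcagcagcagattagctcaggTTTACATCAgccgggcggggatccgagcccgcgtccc
Nupr1 (chr7:126625538-126625617, minus strand): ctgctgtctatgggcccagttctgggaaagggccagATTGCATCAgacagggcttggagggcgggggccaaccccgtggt

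Of 19 glycolytic genes, 2 were higher, 14 were lower and 3 did not pass in KO d4 against control d2, with a median of -0.61. In control d4 against control d2, 10 were higher and 5 lower, with a median of 0.28. Against control d4, 0 were higher and 17 lower in KO d4, beside 19.5% and 18.1% of all genes. Among the 19, 1 was higher at an unadjusted p under 0.05 in edgeR and 0 were higher in DESeq2. Slc16a3 (chr11:120948480-120960868, plus strand), the lactate exporter MCT4, had 7.71, 12.4 and 8.29 CPM in KO d4, against 51.5, 48.1 and 49.6 CPM in control d2. The groups did not overlap, the log2 difference was -2.39 ± 0.29 (SE; adjusted p = 1.58e-06 in edgeR), and control d4 had 71.1, 186 and 135 CPM. The 3 control d4 libraries differed widely but were all above control d2. Slc16a3 was chosen after its values were seen.

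Aldoc, a fructose-bisphosphate aldolase, averaged 1.02 ± 0.254 CPM in KO d4 and 18.1 ± 1.53 CPM in control d2 (log2 difference -4.15 ± 0.38) and 10.8 CPM in control d4. Hk1, a hexokinase, averaged 34.9 ± 1.61 CPM in KO d4 and 141 ± 6.33 CPM in control d2, and Pfkm, a phosphofructokinase, averaged 38.2 ± 4.03 CPM in KO d4 and 127 ± 8.15 CPM in control d2, with control d4 at 41.3 and 58.4 CPM. The 2 higher members, Hk2, another hexokinase, and Slc2a3, a glucose transporter, lie on chromosome 6 and differed by 0.89 ± 0.10 and 0.56 ± 0.12. Slc2a1, Pfkp and Ldhb did not pass. For Ldhb, on chromosome 6, with the collagen score as covariate the log2 difference was -0.27 with adjusted p = 0.0188 in edgeR. Slc2a1, the transporter GLUT1, had 310.3, 322 and 291 CPM in KO d4, against 263, 255 and 257 CPM in control d2, which did not overlap. Control d4, which enters the SE of Slc2a1, averaged 1174 CPM, with 712, 1535 and 1275 CPM.

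Hypoxia-response genes outside glycolysis gave 4 higher, 7 lower and 8 not past the test among 19, with a median of -0.35. In control d4 against control d2, 14 were higher and 1 lower, with a median of 1.03. In KO d4, 16 of 19 were lower and 1 higher than in control d4, beside 18.1% of all genes lower and 19.5% higher. P4ha1, a collagen prolyl hydroxylase, averaged 74.6 ± 6.10 CPM in KO d4 and 164 ± 3.86 CPM in control d2 and 246 CPM in control d4. Ak4, a mitochondrial adenylate kinase, and Mxi1, a MYC antagonist, were lower, with log2 differences of -0.65 and -0.58. The 4 higher members were Vegfa, an angiogenic factor, Pdk1, the pyruvate dehydrogenase kinase, Kdm3a, a histone demethylase on chromosome 6, and Ddit4, an mTORC1 inhibitor, with log2 differences of 1.10, 0.95, 0.64 and 1.07. P4ha2, another prolyl hydroxylase, and Bnip3, a mitophagy receptor, were chosen after their values were seen. P4ha2 averaged 34.6 ± 1.26 CPM in KO d4 and 32.3 ± 1.86 CPM in control d2, against 92.8 CPM in control d4. Bnip3 averaged 15.1 ± 3.17 CPM in KO d4 and 35.1 ± 0.458 CPM in control d2, against 152 CPM in control d4.

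Genes of the 2-cell-like state were far below control d4. This state is a rare fluctuation of ESC cultures marked by the Zscan4 cluster. Of 16 members, 7 were higher, 1 was lower and 8 did not pass in KO d4 against control d2, with a median of 0.62. All 16 were higher in control d4 than in control d2, with a median of 3.09, beside 33.9% of all genes. All 16 were lower in KO d4 than in control d4, beside 18.1% of all genes. In the latter comparison 0 were higher at an unadjusted p under 0.05 in edgeR and 0 in DESeq2. Zscan4c (chr7:11005745-11010547, plus strand) had 9.96, 9.11 and 11.4 CPM in KO d4, against 10.4, 8.22 and 10.6 CPM in control d2. The ranges overlapped (log2 difference 0.06 ± 0.39 (SE), adjusted p = 0.908 in edgeR, interval -0.78 to 0.89), and control d4 had 94.4, 66.4 and 82.6 CPM. With the collagen score as covariate the log2 difference was -0.70 with adjusted p = 0.0201 in edgeR. Zscan4c was chosen after its values were seen.

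Among the members that were higher, Zfp809, a KRAB zinc finger repressor of retroviruses, averaged 66.6 ± 1.23 CPM in KO d4 and 31.3 ± 0.908 CPM in control d2, Tdpoz4 averaged 5.90 ± 0.207 CPM in KO d4 and 0.758 ± 0.247 CPM in control d2, and Sp110, a nuclear body protein, averaged 6.76 ± 1.10 CPM in KO d4 and 1.26 ± 0.448 CPM in control d2. The lower member was Dux, the activator of the state, which had 0.0607, 0.0576 and 0.130 CPM in KO d4, against 0.558, 0.283 and 0.475 CPM in control d2, 4 counts in all in KO d4 and 27 in control d2. Dux lost the call, with edgeR adjusted p = 0.0612 without KO d4 replicate 1, 0.064 without KO d4 replicate 2 and 0.0526 without control d2 replicate 1. Members of the Zscan4 and Usp17l families are almost the same in sequence, and their reads may have been split or dropped in counting. With the collagen score as covariate the list gave 5 higher and 4 lower, and the median was -0.10. In a fit of the 6 libraries alone 12 of 15 tested were higher.

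**Figure D4:**
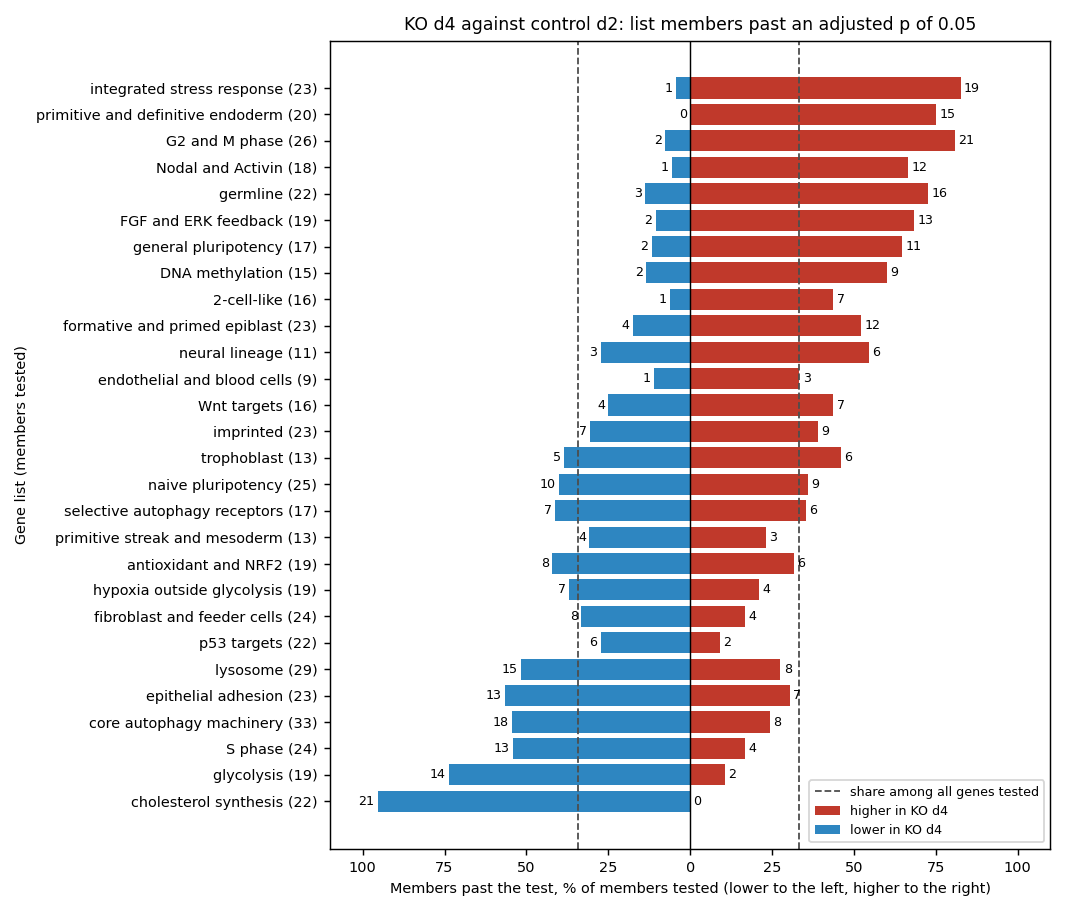
For each of 28 gene lists the bars give the percentage of tested members that were higher (right) or lower (left) in KO d4 than in control d2 at an adjusted p under 0.05, with member counts at the bar ends and the shares of all genes tested as dashed lines (33.3% and 34.3%). The integrated stress response had 19 of 23 higher and cholesterol synthesis 21 of 22 lower.

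Of 22 cholesterol synthesis genes, 0 were higher, 21 were lower and 1, Ebp on the X chromosome, did not pass (log2 difference -0.15 ± 0.13), with a median of -0.95. At an unadjusted p under 0.05 in edgeR and in DESeq2 0 were higher as well. The same counts held for control d4 against control d2, where the median was -1.10. Insig1 (chr5:28071363-28078662, plus strand), which retains SREBP in the endoplasmic reticulum, had 48.5, 49.5 and 46.2 CPM in KO d4, against 228, 236 and 218 CPM in control d2. The log2 difference was -2.24 ± 0.08 (SE; adjusted p = 8.08e-12 in edgeR), and control d4 averaged 50.6 CPM. Dhcr7, the 7-dehydrocholesterol reductase, averaged 42.2 ± 0.906 CPM in KO d4 and 179 ± 10.1 CPM in control d2, and Fdps, the farnesyl diphosphate synthase, averaged 41.2 ± 1.52 CPM in KO d4 and 132 ± 3.27 CPM in control d2, with control d4 at 49.8 and 41.1 CPM. The sterol element TCACNCCAC was in the windows of 1 of 16 members (6.25%) and of 1.49% of all genes with one.

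Of 26 G2 and M phase genes, 21 were higher, 2 were lower (Ccnb2 and Anln) and 3 did not pass (Bub1, Aurkb and Ttk), with a median of 0.44, and in control d4 against control d2 23 were higher and 2 lower. Plk1, the mitotic kinase, had 196, 179.6 and 188 CPM in KO d4, against 61.2, 60.2 and 62.6 CPM in control d2 (log2 difference 1.62 ± 0.08), and control d4 averaged 166 CPM. Kif11, a spindle motor, averaged 214 ± 10.1 CPM in KO d4 and 97.8 ± 5.07 CPM in control d2. In KO d4 against control d4, 2 of the 26 were higher and 15 lower, with a median of -0.22. Among all genes 19.5% were higher and 18.1% lower in that comparison. For all 26 members the interval of KO d4 minus control d4 lay wholly within 1.5-fold, beside 49.5% of all genes.

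The cell cycle element CHR, searched as TTTGAA or TTTAAA on both strands, was in 20 of 22 windows (90.9%) and in 22.8% of all genes with a window. The second of its forms reads the same on both strands. A stretch of Plk1, the member of this list described in full, is shown with the element in capitals.
Plk1 (chr7:122159369-122159448, plus strand): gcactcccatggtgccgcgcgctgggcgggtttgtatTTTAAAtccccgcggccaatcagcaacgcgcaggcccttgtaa

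S phase genes gave 4 higher, 13 lower and 7 not past among 24, with a median of -0.32. The lower ones included Gins2 and Mcm6, of the replicative helicase, and Ung, uracil DNA glycosylase, with log2 differences of -1.22, -0.62 and -0.79. The 4 higher were Tyms, thymidylate synthase, Pcna, the sliding clamp, Fen1, the flap nuclease, and Slbp, the histone mRNA binding protein, with log2 differences of 0.86, 0.40, 0.25 and 0.14. Slbp lost the call, with edgeR adjusted p = 0.0695 without KO d4 replicate 2, 0.144 without KO d4 replicate 3, 0.0699 without control d2 replicate 1, 0.102 without control d2 replicate 2 and 0.0514 without control d2 replicate 3. The element TTTNGCGC was in 5 of 19 windows (26.3%) and in 2.6% of all genes with one.

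Of 22 p53 targets, 2 were higher, 6 were lower and 14 did not pass. With the collagen score as covariate 12 were lower, and in a fit of the 6 libraries alone 6 were higher and 10 lower. The higher were Sesn2 and Btg2, an antiproliferative factor, with log2 differences of 1.42 and 0.43. Cdkn1a, the inhibitor p21, averaged 75.6 ± 3.57 CPM in KO d4 and 135 ± 11.2 CPM in control d2, and Sesn1 and Ddb2 were lower, with log2 differences of -1.13 and -0.99.

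Of 33 genes of the core autophagy machinery, 8 were higher, 18 were lower and 7 did not pass, with a median of -0.28, and in control d4 against control d2 8 were higher and 17 lower. In KO d4 against control d4, 9 were higher and 9 lower, beside 19.5% of all genes higher and 18.1% lower. For 27 of the 33 the interval against control d4 lay within 1.5-fold, and for 16 that against control d2. Among all genes the shares were 49.5% and 31.5%. Atg9a, the lipid scramblase of the early membrane, had 17.5, 19.7 and 17.6 CPM in KO d4, against 46.3, 44.8 and 42.1 CPM in control d2 (log2 difference -1.28 ± 0.07), with control d4 at 20.0 CPM. Wipi1, a phosphoinositide effector, and Gabarapl1, an ATG8 protein on chromosome 6, were lower, with log2 differences of -1.08 and -0.92. Wdr45, another effector of the WIPI family on the X chromosome, Becn1, of the class III PI3 kinase complex, and Vmp1, a scramblase, were higher, with log2 differences of 1.30, 0.38 and 0.50.

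Of 17 selective autophagy receptors, 6 were higher, 7 were lower and 4 did not pass (Retreg1, Nbr1, Optn and, on the X chromosome, Fundc1). Retreg1 passed at edgeR adjusted p = 0.0456 without KO d4 replicate 2. Sqstm1, which encodes the receptor p62, itself degraded by autophagy, had 221, 212 and 209 CPM in KO d4, against 169, 180.4 and 167 CPM in control d2 (log2 difference 0.31 ± 0.05), and control d4 averaged 299 CPM. Tax1bp1, on chromosome 6, and Wdfy3 were higher, with log2 differences of 1.28 and 0.82, and Fkbp8, Bcl2l13 (chromosome 6) and Ccpg1, receptors for mitochondria and the endoplasmic reticulum, were lower, with log2 differences of -0.63, -0.37 and -0.56. Of 29 lysosomal genes, 8 were higher, 15 were lower and 6 did not pass. Ctsb, a protease, was lower, with a log2 difference of -0.80. Npc1, the cholesterol exporter on chromosome 18, Tpp1 and Ctsl, proteases, were higher, with log2 differences of 1.29, 0.81 and 0.81.

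Of 20 endoderm genes, 15 were higher, 0 were lower and 5 did not pass (Lamb1, Amn, Lamc1, Cxcr4 and Foxa1), with a median of 0.82. At an unadjusted p under 0.05 in edgeR and in DESeq2 0 were lower as well, and in control d4 against control d2 11 were higher and 1 lower. Lamb1 passed at edgeR adjusted p = 0.0242 without control d2 replicate 2. Sox7 (chr14:63943673-63950732, plus strand), a SOX factor of primitive endoderm, had 23.7, 26.2 and 24.5 CPM in KO d4, against 1.28, 2.22 and 2.03 CPM in control d2 (log2 difference 3.73 ± 0.28 (SE), adjusted p = 7.81e-09 in edgeR), and control d4 averaged 19.4 CPM. Cubn, an endocytic receptor, averaged 137 ± 32.6 CPM in KO d4 and 12.5 ± 1.64 CPM in control d2. In bulk libraries more cells of a type and more RNA per cell cannot be told apart.

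Of 22 germline genes, 16 were higher, 3 were lower and 3 did not pass (Tex101, Meioc and Mael), with a median of 0.83, and in control d4 against control d2 19 were higher and 3 lower. In KO d4 against control d4, 1 was higher and 9 lower (median -0.26), beside 19.5% of all genes higher and 18.1% lower. Sycp1, of the synaptonemal complex, had 166, 221 and 248 CPM in KO d4, against 35.7, 31.7 and 35.3 CPM in control d2 (log2 difference 2.63 ± 0.12), and control d4 averaged 177 CPM. Tex11, of meiotic recombination and on the X chromosome, averaged 63.5 ± 2.77 CPM in KO d4 and 17.5 ± 1.38 CPM in control d2. Rhox6, a homeobox gene of the same chromosome, averaged 14.2 ± 2.06 CPM in KO d4 and 1.48 ± 0.224 CPM in control d2. Rhox5 (X chromosome), Dpep3 and Stra8 (chromosome 6) were lower, with log2 differences of -0.78, -0.77 and -0.52. Stra8 lost the call, with edgeR adjusted p = 0.0514 to 0.129 whichever of the 6 libraries was left out. The E-box CACGTG, which MAX dimers such as those with MGA, a repressor of germline genes in ESCs, can bind, was in 9 of 18 windows and in 11.3% of all genes with one, and the window of Taf7l is shown with it in capitals. Taf7l, a germline TFIID subunit on the X chromosome chosen after its values were seen, averaged 285 ± 9.87 CPM in KO d4 and 44.8 ± 1.25 CPM in control d2.
Taf7l (chrX:134476497-134476576, minus strand): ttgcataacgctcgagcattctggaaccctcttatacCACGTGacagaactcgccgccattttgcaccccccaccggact

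Markers of other lineages differed in both directions. Of 13 primitive streak and mesoderm genes, Eomes, T and Wnt8a were higher (T-box factors and, on chromosome 18, a Wnt ligand), Fgf8, Mesp2, Hand1 and Gsc were lower and 6 did not pass. Wnt8a lost the call, with edgeR adjusted p = 0.163 without KO d4 replicate 2, 0.0661 without control d2 replicate 2 and 0.0622 without control d2 replicate 3. Eomes averaged 29.8 ± 2.30 CPM in KO d4 and 12.8 ± 1.28 CPM in control d2, while T, at 1.82 ± 0.178 CPM in KO d4 and 0.291 ± 0.170 CPM in control d2, was low in both. Of 13 trophoblast genes, 6 were higher and 5 lower, with Krt8, a keratin, at 199.5 ± 26.4 CPM in KO d4 and 64.5 ± 3.85 CPM in control d2 and Gata3, a lineage factor, at 3.50 ± 0.579 CPM in KO d4 and 17.2 ± 1.42 CPM in control d2. Of 11 neural genes, 6 were higher and 3 lower, led by Tubb3, neuronal tubulin, at 65.0 ± 1.84 CPM in KO d4 and 12.0 ± 1.76 CPM in control d2. Without control d2 replicate 1, 1 of the 11 was lower. Of 9 endothelial and blood genes, 3 were higher (Cdh5, Kdr and Ptprc) and 1 lower (Gata1, on the X chromosome). Gata1 lost the call, with edgeR adjusted p = 0.0647 without KO d4 replicate 1.

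Epithelial adhesion genes gave 7 higher, 13 lower and 3 not past (Ovol1, Grhl2 and Jup) among 23, with a median of -0.59. In KO d4 against control d4, 3 were higher and 14 lower (median -0.61), beside 19.5% of all genes higher and 18.1% lower. Control d4 against control d2 gave 8 higher and 8 lower (median -0.13). Cdh1, E-cadherin, had 432, 436 and 415 CPM in KO d4, against 627, 679.7 and 623 CPM in control d2 (log2 difference -0.59 ± 0.05), with control d4 at 427 CPM. Ovol1, a zinc finger factor, passed at edgeR adjusted p = 0.0326 without KO d4 replicate 2 and 0.00808 without control d2 replicate 1. Ocln, of tight junctions, averaged 11.9 ± 1.21 CPM in KO d4 and 29.5 ± 0.968 CPM in control d2, and Cldn6, a claudin, averaged 20.5 ± 0.422 CPM in KO d4 and 44.2 ± 0.958 CPM in control d2. Of 24 fibroblast and feeder genes, 4 were higher (Vim, Mmp3, Twist2 and Prrx1), 8 were lower and 12 did not pass. Mmp2, a matrix protease, averaged 42.9 ± 2.21 CPM in KO d4 and 115 ± 5.21 CPM in control d2, and Acta2 and Fbln2 (chromosome 6) were lower, with log2 differences of -0.72 and -1.17. With the collagen score as covariate 13 of the 24 were higher and the median turned to 0.42, against -0.31 without it. The score is itself made of fibroblast genes and did not overlap between KO d4 and control d2. Its slope is estimated within groups, where ESC d0 varied most (8.93, 7.99 and 5.88). This fit therefore cannot show how these markers would differ at equal feeder content. In a fit of the 6 libraries alone 7 were higher and 13 lower. The higher count was 1 without KO d4 replicate 3 and 2 without any 1 of the control d2 libraries. Twist2, a mesenchymal factor, lost the call, with edgeR adjusted p = 0.243 without KO d4 replicate 3, 0.0671 without control d2 replicate 1, 0.116 without control d2 replicate 2 and 0.0545 without control d2 replicate 3, and the log2 difference was 0.96 without KO d4 replicate 3, against 1.62 with it. Prrx1, another, lost it, with edgeR adjusted p = 0.0533 to 0.125 whichever of the 6 libraries was left out.

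Of 16 Wnt targets, 7 were higher and 4 lower, with Axin2, a feedback scaffold, at 26.3 ± 2.28 CPM in KO d4 and 8.25 ± 1.02 CPM in control d2 and Dkk1, a secreted inhibitor, at 6.96 ± 1.46 CPM in KO d4 and 0.516 ± 0.0918 CPM in control d2, and Tcf7, Fzd7, Nkd1 and Tcf7l1 lower. Tcf7l1, on chromosome 6, lost the call, with edgeR adjusted p = 0.0548 without KO d4 replicate 1, 0.0504 without KO d4 replicate 2 and 0.0542 without control d2 replicate 3. Without control d2 replicate 3, 4 of the Wnt targets were higher. Of 23 imprinted genes, 9 were higher, 7 were lower and 7 did not pass. Peg10, paternally expressed on chromosome 6, averaged 2241 ± 181 CPM in KO d4 and 709 ± 17.8 CPM in control d2, and Mest, of the same chromosome, averaged 313 ± 10.6 CPM in KO d4 and 149 ± 4.17 CPM in control d2. Cdkn1c and Phlda2, growth-restraining genes expressed from the maternal copy, were lower, with log2 differences of -1.41 and -1.70. Of 19 antioxidant genes, 6 were higher and 8 lower, with Tkt, transketolase, at 384 ± 5.86 CPM in KO d4 and 811 ± 37.7 CPM in control d2, Gsta4, a glutathione transferase, lower with a log2 difference of -0.73, and Keap1, the NRF2 adaptor, higher with 1.17.

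**Figure D5:**
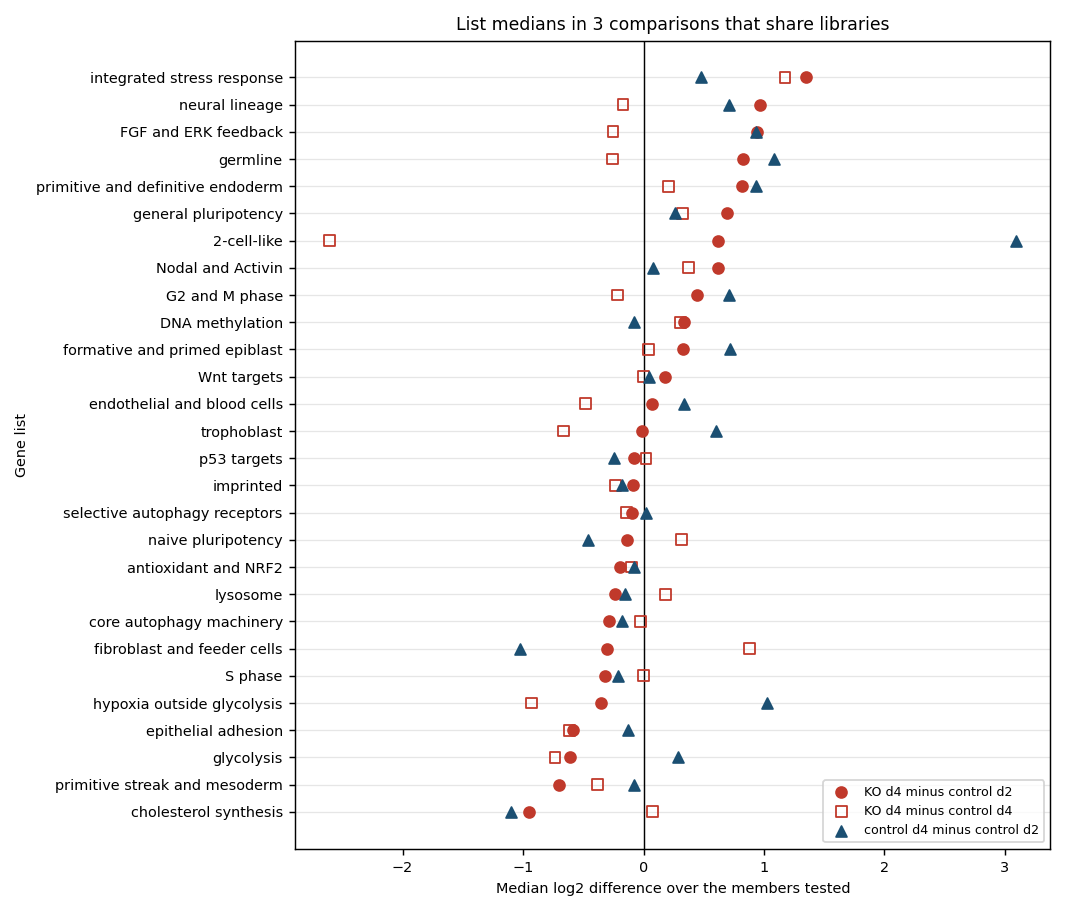
Median log2 differences over the tested members of each list are shown for KO d4 minus control d2 (filled circles), KO d4 minus control d4 (open squares) and control d4 minus control d2 (triangles), which share libraries. The integrated stress response median was 1.35 and 1.17 in the comparisons of KO d4, against 0.47 in control d4 minus control d2, and the 2-cell-like median was 0.62, -2.60 and 3.09.

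The 10 largest increases among named genes of at least 5 CPM with no overlap were led by Samd9l, an interferon-inducible endosomal protein on chromosome 6, with 9.05, 9.63 and 10.8 CPM in KO d4, against 0.112, 0.236 and 0.0864 CPM in control d2 (log2 difference 6.02 ± 0.46). Control d4 averaged 6.76 CPM of it. Cox6a2, the muscle form of a cytochrome c oxidase subunit, had 5.77, 4.15 and 5.81 CPM in KO d4, against 0.167, 0.0945 and 0.0432 CPM in control d2, and control d4 averaged 0.341 CPM. Cox6a2 was thus raised in KO d4 against both control groups, with log2 differences of 5.66 ± 0.43 and 3.94 ± 0.37 (adjusted p = 9.05e-09 and 1.04e-06 in edgeR).

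Other increases among them were Slc7a11 and Lefty2, described above, and Pcdhga1 on chromosome 18, Mmp3, Lrp8os2, Pabpc6 and Zfp386. The log2 differences of those from Pcdhga1 to Zfp386 were 4.50, 4.36, 4.20, 4.16 and 3.78. Pcdhga1, Lrp8os2, Pabpc6 and Zfp386 averaged 7.76, 5.45, 5.65 and 12.3 CPM in KO d4. Control d4 averaged 8.27, 4.27, 6.27 and 16.2 CPM of them, and none passed the test between KO d4 and control d4. Mmp3 averaged 0.210 CPM in control d4. Mmp3, a matrix protease of the fibroblast list, had 2.31, 1.44 and 11.7 CPM in KO d4, against 0.335, 0.283 and 0.130 CPM in control d2, so the library of KO d4 replicate 3 carried most of its counts. Without that library the log2 difference was 2.91, with edgeR adjusted p = 0.117 without KO d4 replicate 3. Without control d2 replicate 1 the log2 difference of Pabpc6 was 5.31, and without control d2 replicate 3 that of Zfp386 was 4.37. Lrp8os2 is named as an opposite-strand transcript of Lrp8, and its reads cannot be told from those of its partner unless strand was used in counting, which no source used here gives. Lrp8, given as its partner, averaged 15.1 ± 0.807 CPM in KO d4 and 26.1 ± 0.554 CPM in control d2 (log2 difference -0.79 ± 0.15). The part of Lrp8 reads in the Lrp8os2 counts was not tested.

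The largest of the 10 decreases was in Lyz2, a lysozyme of myeloid cells, with 0.0607, 0 and 0 CPM in KO d4, against 5.52, 5.48 and 5.49 CPM in control d2. Its 1 count in KO d4 against 342 in control d2 gave a ratio of 0.00362 per total count (95% exact counting interval 9.15e-05 to 0.0203). The count lay in replicate 1. Control d4 averaged 0.125 CPM and ESC d0 4.05 CPM. The others were Cd164l2, Aldoc, Aifm3, Fam43b, Paqr6, Gnmt, Acaa1b, Rgs14 and Fam131c, with log2 differences from -4.68 to -3.61. Aifm3, an apoptosis-inducing factor family member, averaged 1.57 ± 0.402 CPM in KO d4 and 27.7 ± 1.45 CPM in control d2 and 4.04 CPM in control d4. Acaa1b, a peroxisomal thiolase, averaged 3.62 ± 0.609 CPM in KO d4 and 46.6 ± 6.41 CPM in control d2 and 4.79 CPM in control d4. Gnmt, glycine N-methyltransferase, averaged 0.414 ± 0.213 CPM in KO d4 and 6.50 ± 0.813 CPM in control d2. All 10 were also lower in control d4 than in control d2 at an adjusted p under 0.05 in edgeR.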

How the data were processed

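Polyadenylated RNA was sequenced in 15 libraries (5 groups of 3), and the authors deposited a table of raw read counts per gene symbol for each library. The submitters' processing notes name STAR, StringTie, featureCounts and DESeq2 with the builds GRCm38 and mm10, with no versions, and no source used here says whether counting used strand. From these counts, edgeR 4.0.16 in R 4.3.3 was used with TMM scaling and the quasi-likelihood test. All 15 libraries were fitted in a model of 5 groups with 10 residual degrees of freedom, and p-values were adjusted by Benjamini-Hochberg over the 15696 genes kept by filterByExpr (minimum count 10, minimum total 15). Of 24982 symbols, 9286 were filtered out, 3371 of them at 0 in all libraries, and 25 list genes were among those filtered out. A call means an adjusted p under 0.05. CPM values use the TMM library sizes, and a 95% interval comes from the fitted log2 difference and its SE. Intervals on count ratios are exact and cover counting error only.

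Alternatives were RLE and upper quartile scaling, other filters, DESeq2 1.42.0, a test against a 1.5-fold change, a replicate block, a collagen score (3 fibroblast collagen genes) as covariate, the genes without chromosome 18, the 6 libraries alone and each library left out. No pair of libraries of KO d4 or of control d2 agreed within sampling noise. Named genes were Atg7, the 10 largest increases and decreases (5 CPM or more on average where higher, no overlap), any member of the naive, general and formative lists, up to 3 higher and 3 lower members of each other list by p, and any member where a list count was 5 or fewer. Others are said to have been chosen after their values were seen. Some genes that the rule names are not reported here. The comparison, its lists and its tests were chosen with earlier results of these data known. Promoter windows are from RefSeq (GRCm38.p6), found for 12143 tested genes.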

Additional observations from a re-analysis of the deposited data

How the results depend on the processing

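With a minimum change of 1.5-fold in the test, KO d4 against control d2 had 4647 genes called, 2352 higher and 2295 lower. Under that test control d4 against control d2 had 4794 called (2525 higher, 2269 lower) and KO d4 against control d4 had 614 (171 higher, 443 lower). With 2-fold limits, 8764 intervals lay within and 1992 outside. Without a fold minimum for the time course sets, 2623 of the genes rising in controls were higher and 1236 lower (median log2 difference 0.27), and 1322 of the falling genes were higher and 2676 lower (median -0.21). RLE scaling moved the median of the falling genes to -0.43. The other settings kept the counts of calls over all genes within 1.5-fold, with 7873 (a filter of 10 CPM in 3 libraries) to 11382 (the 6 libraries alone) genes called between KO d4 and control d2, and 10511 with DESeq2. Leaving out 1 library gave 9870 to 10035 calls for KO d4 against control d2, 10024 to 10187 for control d4 against control d2 and 4790 to 5054 for KO d4 against control d4. No gene called in both fits changed direction in any setting, and the median of all genes lay between -0.02 and 0.02 in every setting and was above 0 with RLE scaling and DESeq2.

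Of the 56 counts of higher or lower list members, 36 moved by over 1.5 times with the minimum change of 1.5-fold, where the integrated stress response had 18 higher, cholesterol synthesis 17 lower and the naive genes 4 higher and 2 lower. The filter of 10 CPM and the 6 libraries alone moved 8 each, the collagen score moved 5 and leaving out 1 library moved 1 to 3. RLE and upper quartile scaling, no filter, DESeq2, the replicate block and the genes without chromosome 18 moved none.

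Same-numbered libraries of KO d4 and control d2 had correlations of -0.02, -0.02 and 0.02, and the best partners of replicates 1, 2 and 3 were 2, 1 and 3. These values showed no pairing by number, but so few cannot exclude it. With the replicate as a block 10545 genes were called, of which 10452 were shared with the fit without it.

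With the collagen score as covariate 5 genes that had not passed gained a call on the other side of 0, namely Dnmt3l (0.31), Foxd3 (0.41), Ldhb (-0.27), Zfp57 (0.17) and Zscan4c (-0.70), and the cause was not tested. The score was 4.35 to 4.79 in KO d4 and 5.45 to 5.72 in control d2, without overlap. Its slope leans on ESC d0, where it varied most (8.93, 7.99 and 5.88), so these calls rest on an extrapolation. Of 231 named genes, 148 kept their side of the threshold in every setting. Depth limits genes such as Lyz2, Dux and Olig2, with few or no counts in KO d4.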

Other observations

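Summed levels also differed between the groups for some lists with members called in both directions. The imprinted genes summed to 5158 to 5497 CPM in KO d4 and 2933 to 3071 CPM in control d2, with 5964 to 6165 CPM in control d4, and Peg10 on chromosome 6 held much of the sum. The antioxidant and NRF2 genes summed to 2309 to 2395 CPM in KO d4 and 3145 to 3292 CPM in control d2, with 2398 to 2526 CPM in control d4. The core autophagy genes summed to 1944 to 1969 CPM in KO d4 and 2226 to 2326 CPM in control d2, with 1891 to 1939 CPM in control d4. The hypoxia genes outside glycolysis summed to 1133 to 1157 CPM in KO d4 and 989 to 1014 CPM in control d2, with 1476 to 2393 CPM in control d4. These sums were not tested.

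The chromosome shifts differed between groups of one day. Set against the control d2 mean on the log2(CPM + 1) scale, the median over chromosome 6 genes was 0.22 to 0.24 in the KO d4 libraries, 0.29 to 0.32 in control d4 and 0.06 to 0.09 in KO d2. Over chromosome 18 genes it was 0.31 to 0.34 in KO d4, 0.29 in each control d4 library and 0.46 to 0.48 in KO d2. Whether these are differences in chromosome copy between cultures was not tested.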
